A study of Mus musculus with 20 samples.

Results

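The Zmym2 knockout embryos were compared with wild-type embryos at embryonic day 8.5 (E8.5), the stage of neural fold, heart tube and early somite formation. All libraries whose labels named a whole embryo were taken, 12 of the 20 samples of the series, and the other 8 came from cell lines. Each library was poly(A)-selected, strand-specific RNA from 1 whole C57BL/6 mouse embryo, 6 Zmym2+/+ (wild type) and 6 Zmym2-/- (knockout), with 3 males and 3 females of each genotype. The Zmym2- allele carried a CRISPR-Cas9 mutation in the first coding exon in every cell from conception, the parents were heterozygous, and the study picked embryos with no visible abnormality. The embryo names began with H or J. The H names covered 4 Zmym2+/+ and 2 Zmym2-/- embryos, the J names covered 2 Zmym2+/+ and 4 Zmym2-/- embryos, and the 3 male Zmym2-/- embryos shared the name number J7484. The labels gave no meaning for these letters and numbers. The study named a pair of RNA extraction kits under its qPCR methods and none for the sequenced embryos. The labels did not say which kit an embryo had.

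ZMYM2 is a zinc finger protein that binds SUMO and joins the LSD1, CoREST and HDAC corepressor complex. Genes used in germ cells are normally switched off in the tissues of the embryo after implantation. The polycomb complex PRC1.6, which finds its targets through the E2F motif (by E2F6) and the E-box (by MGA and MAX), marks many of them for promoter methylation. Young LINE-1 transposons, such as the L1MdT subfamily of the mouse, are silenced at the same stage by TRIM28 and other pathways, and an active LINE-1 promoter can splice into a nearby gene and give a fusion transcript.

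Libraries held 38142819 to 64057608 counts, 38142819 to 41299677 for the H names and 48908253 to 64057608 for the J names, so that 1 count per 1000000 scaled counts (CPM) stood for 36.1 to 69.8 reads. Mitochondrial transcripts took 0.233 to 0.797% of counts. The pairwise correlation of log2 CPM across genes was 0.957 to 0.992 among Zmym2+/+ embryos and 0.960 to 0.995 among Zmym2-/- embryos. Xist and Y-linked transcripts matched the labelled sex in 12 of 12 embryos.

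Transcripts of uterine natural killer cells were present in some embryos and nearly absent from others, and this difference followed the H and J names in all embryos but 1. The summed level of 8 genes of uterine natural killer cells (the granzymes Gzmb to Gzmg, the pore-forming protein Prf1 and the interleukin receptor Il2rb) was 42.1 to 224 CPM in all 6 H embryos and Zmym2+/+ embryo 3 (J7444). It was 0.272 to 1.26 CPM in the other 5 J embryos, Zmym2+/+ embryo 6 and Zmym2-/- embryos 1, 2, 3 and 6. The same 7 embryos held 366 to 896 CPM of 12 genes of decidual stroma against 78.3 to 167 CPM, including the decidual prolactin Prl8a2 at 84.4 to 264 CPM against 2.28 to 23.5 CPM. A sum over 9 leukocyte genes was 16 to 47.4 CPM against 3.09 to 6.44 CPM. The 7 embryos stood apart from the other 5 in all 8 natural killer genes, 10 of the 12 decidual genes and 7 of the 9 leukocyte genes. None of these genes was called between genotypes with edgeR or DESeq2, and 0 had an unadjusted p under 0.05. The part of these transcripts in any genotype difference was examined only by the values given with the results. In whole embryos, fewer cells of a type and less RNA per cell cannot be told apart.

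**Figure D1:**
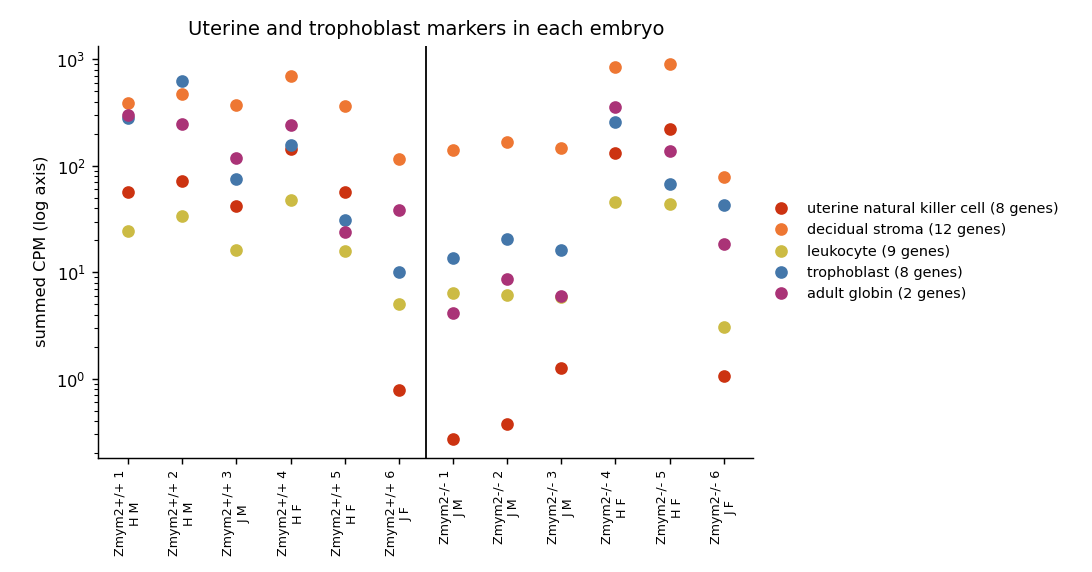
Summed CPM (log axis) of marker genes of uterine natural killer cells, decidual stroma, leukocytes, trophoblast and adult globin in each of the 12 embryos, with the letter of the name and the sex (M or F) under each. The natural killer sum (red) lies between 42.1 and 224 CPM in 7 embryos of both genotypes and between 0.272 and 1.26 CPM in the other 5.

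Zmym2 mRNA was 50.3, 87.9 and 125 CPM (lowest, median and highest) in Zmym2+/+ embryos and 25.4, 47.7 and 67.1 CPM in Zmym2-/- embryos. The groups overlapped: the lowest Zmym2+/+ embryo stood below 3 of the Zmym2-/- embryos. The log2 fold change was -0.91 (SE 0.252), which did not pass the test (edgeR quasi-likelihood test, Benjamini-Hochberg adjusted p = 0.226). A mutation in a coding exon need not lower the mRNA, so its level is not by itself a check of the labels.

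Most genes called between genotypes were higher in Zmym2-/- embryos. Of 22729 genes tested, 119 (0.524%) were called at an adjusted p under 0.05 with edgeR, 116 of them (0.51%) higher and 3 (0.0132%) lower in Zmym2-/- embryos. The change was at least 4-fold for 84 of the genes called higher (0.37% of all genes) and for 1 called lower (0.0044%), and it was 16-fold or more for 40. DESeq2 called 324 genes higher and 32 lower, and without Zmym2+/+ embryo 5 edgeR called 113 higher and 39 lower, so the number of lower genes varied more than that of higher genes. The median log2 fold change of the genes called higher was 2.7, or 2.65 with genes of few wild-type counts set at their bound, against 0.02 over all genes. In the fit with the name number as a block over the 7 embryos whose number held both genotypes, 1 gene (Pla2g1b) was called and 0 were lower. All 116 stayed above 0 there, with a median log2 fold change of 2.72 against 0.02 over all genes in that fit. Over the 12 embryos, 52.3% of all genes were above 0.

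**Figure D2:**
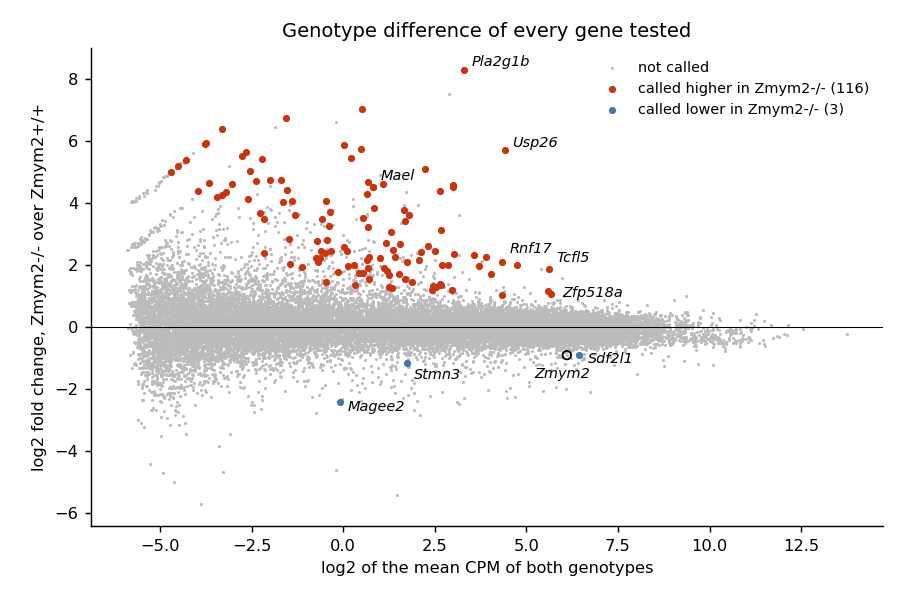
Log2 fold change of Zmym2-/- over Zmym2+/+ embryos (vertical axis) against log2 of the mean CPM of both genotypes (horizontal axis) for the 22729 genes tested. Red points are the 116 genes called higher, blue points the 3 called lower, and the open circle is Zmym2. Of the 119 called genes, 116 lie above the line at 0, most of them at low mean CPM.

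The upregulated genes were mostly silent or barely detected in wild-type embryos. The mean level in Zmym2+/+ embryos was under 1 CPM for 84 of the 116, while 39.7% of all genes tested lay under that level. Their median was 0.318 CPM in wild types and 2.69 CPM in Zmym2-/- embryos. Per length, the median was 0.122 RPKM (reads scaled to transcript length and library size) in Zmym2+/+ and 1.03 RPKM in Zmym2-/- embryos, and the highest Zmym2-/- means were those of Pla2g1b (28.6 RPKM), Tcfl5 (25.3 RPKM) and Ms4a4d (16.9 RPKM). In 111 of the 116 genes every Zmym2-/- embryo stood above every Zmym2+/+ embryo, a pattern found in 1.03% of all genes. The 5 genes whose groups overlapped were Catsperg1, Zfp518a, Kcnh3, Rec8 and Gm42851. Leaving out each embryo in turn kept 73 of the 116 in all 12 fits, whereas 33 were kept in fewer than 6 of them.

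The embryos of each genotype were alike in this respect, which is a description only. The test that chose the 116 genes used these same embryos and favours genes with a small spread within a genotype. The median over the 116 genes of log2(CPM + 0.05) less its Zmym2+/+ mean was 2.14 to 2.46 in the 6 Zmym2-/- embryos and -0.16 to 0.23 in the 6 Zmym2+/+ embryos. The Zmym2-/- embryos with high uterine markers, embryos 4 and 5, had 2.21 and 2.14, and the other 4 had 2.18 to 2.46. The genes called higher by 4-fold or more had medians of 2.47 to 2.88 and those under 4-fold 1.46 to 1.74 in Zmym2-/- embryos.

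Pla2g1b, a secreted phospholipase known from the pancreas, had the smallest p. It was 0.0242, 0.0552 and 0.105 CPM in Zmym2+/+ embryos and 12.2, 19 and 29.5 CPM in Zmym2-/- embryos, with a log2 fold change of 8.30 (SE 0.408, adjusted p = 2.83e-07 with edgeR). Its groups were far apart, and it stayed called in all 12 leave-one-out fits. Tcf24, a basic helix-loop-helix transcription factor, was 1.66, 2.65 and 4.08 CPM against 12.5, 13.7 and 14.8 CPM, a log2 fold change of 2.36 (SE 0.211, adjusted p = 0.000142 with edgeR). Its Zmym2-/- embryos were closely grouped, with an SD of 0.853 CPM about a mean of 13.7 CPM (n = 6). Ms4a4d, a membrane protein of the MS4A family, was 3.15, 5.33 and 6.75 CPM in wild types and 18.9, 25.2 and 27.9 CPM in Zmym2-/- embryos. Rnf17, a Tudor protein of germ cell granules, was 5.38, 7.68 and 10.2 CPM in wild types and 28.9, 32.1 and 37.3 CPM in Zmym2-/- embryos. Neither gene overlapped between genotypes, and their log2 fold changes were 2.27 (SE 0.205) and 2.09 (SE 0.183). Gm27045, a long noncoding RNA that starts at a bidirectional promoter, was 0.155, 0.207 and 0.393 CPM against 1.86, 2.7 and 3.53 CPM. A230004M16Rik, a noncoding transcript, had 1 count in all Zmym2+/+ libraries together, and 0.487, 0.695 and 0.953 CPM in Zmym2-/- embryos, a ratio of 176 with a 95% counting interval of 31.3 to 6990.

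**Figure D3:**
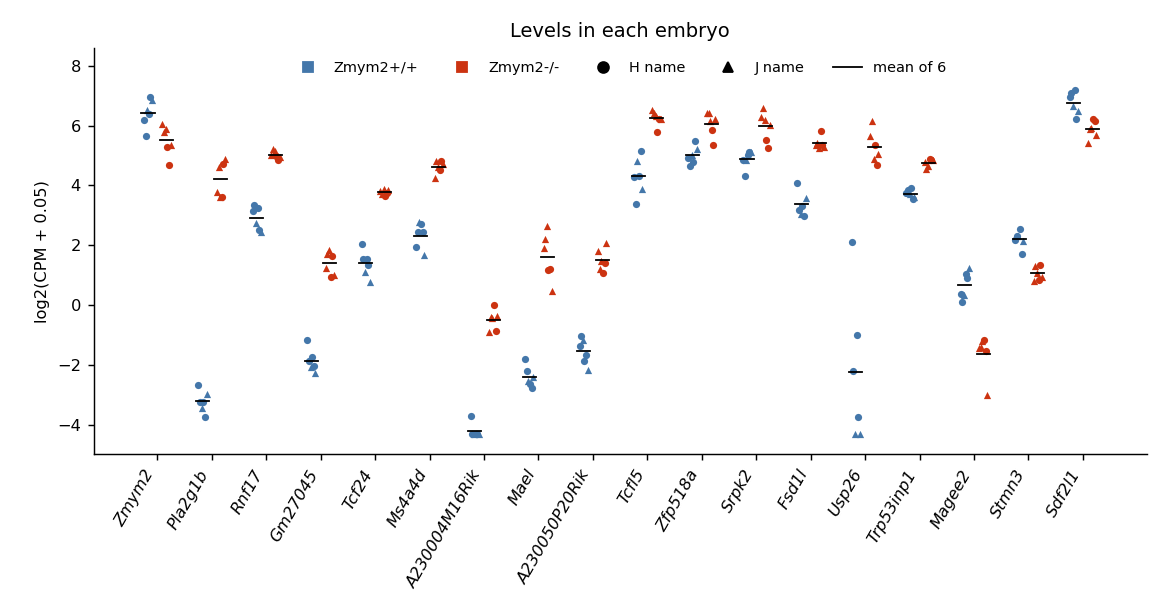
Level of 18 genes in each embryo as log2(CPM + 0.05), Zmym2+/+ in blue and Zmym2-/- in red, circles for H names and triangles for J names, with a bar at the mean of 6. Zmym2 overlaps between genotypes, the genes called higher stand apart except Zfp518a, and Usp26 shows 1 Zmym2+/+ embryo at 4.27 CPM while the other 5 are under 0.5 CPM.

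Of the 116 upregulated genes, 18 had 3 or fewer reads in all Zmym2+/+ libraries together. For the 6 with 0 reads (Epha6, Skint11, Olfr335-ps, Gm37904, 1700111N16Rik and Zp3r), the rise was at least 6.79-fold to at least 18.3-fold, set against a floor of 3 counts over the 6 libraries. Epha6, an ephrin receptor of neurons, had the bound of 18.3-fold and reached 0.0978, 0.231 and 0.301 CPM in Zmym2-/- embryos. Zp3r, a protein of the sperm acrosome, had a bound of 7.84-fold and stood at 0.0453, 0.0711 and 0.172 CPM. These levels correspond to a few reads per library, and such intervals and floors cover counting error alone.

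Genes of germ cells rose in both functional lists fixed for them. Of 42 meiosis genes tested, 14 (33.3%) were called higher with edgeR and none lower, where 0.51% of all genes were called higher, and the median log2 fold change over the list was 1.24. Of 41 genes of the piRNA pathway and germ cell RNA control, 12 (29.3%) were called higher and none lower, with a median of 1.29, against 0.02 over all genes. Negative log2 fold changes were found for 10 of the 42 and 7 of the 41. DESeq2 called 19 of the 42 and 16 of the 41 higher, where it called 1.43% of all genes higher. The per-embryo medians of both lists were higher in every Zmym2-/- embryo (0.85 to 1.49 for meiosis, 1.00 to 1.63 for the piRNA and RNA list) than in any Zmym2+/+ embryo (highest 0.19 and 0.35). These lists hold genes that the study also named, so their counts are not independent evidence of the direction.

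Within meiosis, the called genes spanned entry, chromosome axis, synapsis and recombination. Of the 42 listed genes, 28 were not called and 10 had negative log2 fold changes, the lowest -1.56. Stra8, which starts the meiotic programme, was 0, 0.131 and 0.220 CPM in wild types and 0.788, 2.19 and 9.12 CPM in Zmym2-/- embryos. Its log2 fold change was 4.67 (SE 0.744, adjusted p = 0.00958 with edgeR), and its spread among Zmym2-/- embryos was wide, with embryo 2 at the highest value. Gm1564, the symbol used here for the meiotic RNA regulator Meioc, was 0.0969, 0.199 and 0.524 CPM against 3.31, 9.25 and 16.9 CPM (log2 fold change 5.10, SE 0.528). Hormad2, an axis protein, was 0.412, 0.712 and 1.18 CPM in wild types and 2.15, 3.42 and 4.10 CPM in Zmym2-/- embryos. The axis and cohesin genes also included Sycp3 (log2 fold change 2.67), Rec8 (1.18) and Smc1b (1.95), of which Rec8 overlapped between genotypes. The synapsis genes were Syce1 (2.39), Tex12 (4.02) and 4930447C04Rik, also called Six6os1 (1.34). Mei4 (1.34) and Ccdc36, also called Iho1 (1.55), both needed for the breaks that begin recombination, rose with the strand exchange enzyme Dmc1 (2.62), whose groups were 0.678 to 1.92 CPM and 6.57 to 9.99 CPM.

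Among the RNA regulators of germ cells, Mael, which acts in piRNA silencing, was 0.0969, 0.132 and 0.236 CPM in wild types and 1.34, 2.97 and 6.25 CPM in Zmym2-/- embryos. Boll, an RNA-binding protein of the DAZ family, was 0.0262, 0.0896 and 0.250 CPM against 0.684, 1.23 and 1.69 CPM. The groups of both genes were apart, and their log2 fold changes were 4.53 (SE 0.426) and 3.47 (SE 0.449). Rbm46, an RNA-binding protein needed for the entry of germ cells into meiosis, was 0.391, 0.549 and 0.864 CPM in wild types and 1.80, 2.77 and 3.49 CPM in Zmym2-/- embryos. Ctcfl, a germ cell paralog of the insulator protein CTCF, rose with a log2 fold change of 3.72 (SE 0.607), from 0.0206 to 0.183 CPM up to 0.487 to 3.33 CPM. Rbmxl2 and D1Pas1, testis copies of Rbmx and Ddx3x, had log2 fold changes of 4.59 and 4.53. How reads shared between such copies and their parents were counted is not given in the sources used here, so the levels of D1Pas1, Rbmxl2, the testis tubulin Tuba3a (4.37) and the ferritin-like Fthl17f (5.51) are less certain than the others.

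Other called genes that the study placed at their own promoters included several of sperm or of tissues that form later. Cyct, the testis form of cytochrome c, was 0.0727, 0.135 and 0.277 CPM in wild types and 1.36, 2.94 and 5.62 CPM in Zmym2-/- embryos. Rhox13, an X-linked homeobox gene of germ cells, was at or under 0.131 CPM in wild types and 0.588, 1.54 and 4.06 CPM in Zmym2-/- embryos. Doc2b, a calcium sensor of secretory cells, was 0.138, 0.369 and 0.945 CPM against 1.42, 6.17 and 10.1 CPM. None of the 3 overlapped between genotypes. Smaller increases were found for Rgs9, a G protein regulator of photoreceptors (log2 fold change 2.09), the potassium channel Kcnh3 (2.46), the inflammasome protein Nlrc4 (2.47) and the sperm exchanger Slc9b1 (2.15).

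Promoter windows show how the called genes differed in sequence, and 6 of them are printed because they hold both motifs, 1 motif or neither. The windows are those of RefSeq on GRCm38.p6, from 250 bases before to 50 after the annotated start, read 5′ to 3′ on the strand of the gene. They are Mael at chr1:166238695-166238994 (minus strand), Ddx4, an RNA helicase of germ cells, at chr13:112652261-112652560 (minus), Rbm46 at chr3:82876434-82876733 (minus), Tcfl5 at chr2:180642642-180642941 (minus), Pla2g1b at chr5:115465892-115466191 (plus) and Gc at chr5:89457849-89458148 (minus). Capitals mark the E2F motif, spelled GCGGGA and searched on both strands, so that its reverse complement counts too. They also mark the E-box, spelled CACGTG, which reads the same on both strands and can share at most 1 base with the E2F motif.
Mael: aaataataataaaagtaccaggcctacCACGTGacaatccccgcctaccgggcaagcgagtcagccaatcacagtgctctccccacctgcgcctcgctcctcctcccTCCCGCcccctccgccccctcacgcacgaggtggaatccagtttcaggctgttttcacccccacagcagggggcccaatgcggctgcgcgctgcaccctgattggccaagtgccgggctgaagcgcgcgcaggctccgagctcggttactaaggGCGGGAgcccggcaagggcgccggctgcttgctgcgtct
Ddx4: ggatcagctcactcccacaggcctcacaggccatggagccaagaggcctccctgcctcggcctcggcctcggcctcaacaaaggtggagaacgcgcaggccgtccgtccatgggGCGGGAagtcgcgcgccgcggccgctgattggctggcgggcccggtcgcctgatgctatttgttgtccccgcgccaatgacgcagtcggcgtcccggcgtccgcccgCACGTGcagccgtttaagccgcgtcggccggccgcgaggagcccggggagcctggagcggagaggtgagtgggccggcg
Rbm46: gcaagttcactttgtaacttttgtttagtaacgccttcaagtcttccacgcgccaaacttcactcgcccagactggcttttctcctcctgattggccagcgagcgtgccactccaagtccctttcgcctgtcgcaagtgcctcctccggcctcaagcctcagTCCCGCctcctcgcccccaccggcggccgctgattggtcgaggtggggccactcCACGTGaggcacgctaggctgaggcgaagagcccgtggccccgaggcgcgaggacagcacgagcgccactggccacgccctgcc
Tcfl5: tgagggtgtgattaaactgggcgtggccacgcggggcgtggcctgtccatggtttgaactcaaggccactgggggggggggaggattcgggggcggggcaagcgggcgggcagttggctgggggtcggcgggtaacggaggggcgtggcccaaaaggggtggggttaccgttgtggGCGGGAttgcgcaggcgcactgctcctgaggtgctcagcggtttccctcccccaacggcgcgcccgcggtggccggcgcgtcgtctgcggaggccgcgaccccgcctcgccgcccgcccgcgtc
Pla2g1b: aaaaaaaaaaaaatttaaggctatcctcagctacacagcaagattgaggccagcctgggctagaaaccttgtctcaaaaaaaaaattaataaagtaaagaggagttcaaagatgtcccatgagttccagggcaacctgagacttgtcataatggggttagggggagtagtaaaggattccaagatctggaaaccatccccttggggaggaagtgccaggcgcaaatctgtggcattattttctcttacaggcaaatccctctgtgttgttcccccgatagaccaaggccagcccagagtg
Gc: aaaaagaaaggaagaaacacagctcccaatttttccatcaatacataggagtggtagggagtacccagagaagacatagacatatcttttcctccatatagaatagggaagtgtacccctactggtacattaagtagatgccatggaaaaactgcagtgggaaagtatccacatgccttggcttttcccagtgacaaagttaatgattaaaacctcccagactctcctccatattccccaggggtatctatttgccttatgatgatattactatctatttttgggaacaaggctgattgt

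Mael, Ddx4 and Rbm46 held both motifs, Tcfl5 held the E2F motif without the E-box, and Pla2g1b and Gc held neither. The study assigned Pla2g1b to a transposon other than L1MdT and Gc to L1MdT, so the annotated start may not be the start used in these embryos. A match is a description of letters and not a binding site.

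Of the 116 genes called higher, 75 had such a window, and some had several. A gene was counted for a motif if any of its windows held it, so both motifs of a gene could lie in different windows. The E2F motif was in 40.0% of them and the E-box in 14.7%, against 34.9% and 10.6% of the 14599 genes tested that had a window. Among the 4032 genes with a window and a Zmym2+/+ mean under 1 CPM, the range of most called genes, 20.4% and 7.71% held them. The 30 called genes that the study placed at their own promoters held the E2F motif in 50%, the E-box in 30.0% and both in 23.3%. The 19 placed at L1MdT held the E2F motif in 15.8% and the E-box in none, and the 23 outside the study's list held them in 52.2% and 8.7%. The called piRNA and germ cell RNA genes (8 with a window) held each motif in 75%. The members of that list that were not called (25 genes with a window) held them in 24% and 28%. The called meiosis genes (13 with a window) held the E2F motif in 53.8% and the E-box in 23.1%. The meiosis genes that were not called (21 with a window) held them more often, in 66.7% and 42.9%. The number of CpG sites was taken from the window of each gene with the most. It had a median of 14 for the own-promoter genes, 5 for the L1MdT genes and 23 for those outside the list. It was 19 over all genes and 7 over genes with a Zmym2+/+ mean under 1 CPM, so that the own-promoter genes lay below the former and above the latter. Counted per window and not per gene, the motifs were in 20% and 7.15% of all 32851 RefSeq windows, so these shares are not on the scale of those above.

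The L1MdT class comprised 30 of the called genes, with a median log2 fold change of 4.62, against 2.93 for the 42 genes at their own promoters. This order rested in part on counts near 0, since 14 of the 30 and 2 of the 42 had 3 or fewer reads in all Zmym2+/+ libraries together. With those genes set at their bound the medians were 3.69 and 2.80. On the log2(CPM + 0.05) scale, which understates the change of low genes, the medians per Zmym2-/- embryo were 2.41 to 2.72 for L1MdT and 2.44 to 3.17 for own promoters, so the ranges of the classes overlapped. The study drew up these classes from the same libraries, so the direction of their members is not independent evidence. Several members are genes of organs that form later. Reg2, a secreted protein of the pancreas, was 0, 0.0139 and 0.157 CPM in wild types and 1.56, 2.00 and 3.02 CPM in Zmym2-/- embryos (a log2 fold change of 5.45, SE 0.76). Tmprss11f, an epithelial serine protease, was 0, 0 and 0.288 CPM against 1.56, 2.98 and 3.14 CPM (5.75, SE 0.887). Pkhd1, the gene of fibrocystin in renal cilia, was 0.247, 0.413 and 1.10 CPM against 4.74, 6.02 and 6.99 CPM (3.42, SE 0.39). The groups of these genes were apart. Grm5 and Csmd1, genes of neurons, and C6, a complement protein of plasma, stayed under 1 CPM in Zmym2-/- embryos, with 0.468, 0.660 and 0.257 CPM as their highest values. Fsd1l stood out by its level, at 7.85, 9.51 and 16.9 CPM in wild types and 37.8, 40.8 and 56.6 CPM in Zmym2-/- embryos (2.01, SE 0.199). Reads that start in a LINE and reads from the gene's own start were counted together, so these values do not show the form of the transcript.

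The other transposon class held 8 called genes with a median log2 fold change of 3.87. Beside Pla2g1b it included Grm8, a glutamate receptor, at 0.193, 0.510 and 1.21 CPM in wild types and 2.79, 4.06 and 4.94 CPM in Zmym2-/- embryos. It also included Gm43803 (log2 fold change 2.25), annotated antisense to another gene. The 4 genes the study left unclear were Abhd12b, Gm29793, Gm13231 and Gm37912, with log2 fold changes of 2.02 to 4.61.

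The 32 genes that rose by less than 4-fold were the same 32 that the study's list did not hold, and the 84 that rose by at least 4-fold were all in it. The list was made from the same libraries with the same 4-fold limit. The median log2 fold change of the 32 was 1.61, and they included genes with levels above those of most upregulated genes. Tcfl5, a transcription factor of spermatocytes, was 10.5, 19.5 and 35.6 CPM in wild types and 55.4, 77.4 and 91.1 CPM in Zmym2-/- embryos, a log2 fold change of 1.85 (SE 0.256, adjusted p = 0.00304 with edgeR). Its groups were apart, and it stayed called in all 12 leave-one-out fits. Zfp518a, a zinc finger protein, was 25.1, 31.2 and 44.7 CPM against 41.0, 72.4 and 85.0 CPM, and Srpk2, a kinase of splicing factors, was 20.1, 30.7 and 34.5 CPM against 38.1, 68.8 and 96.8 CPM. For both, the Zmym2-/- embryos of the H names were the lowest of the 6. Their log2 fold changes of 1.07 (SE 0.192) and 1.14 (SE 0.217) were each called in 3 of the 12 leave-one-out fits, and within the H names alone they were 0.61 and 0.52.

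Germ cell genes were also found among the 32 smaller increases. Tex15, which guides methylation of transposons in the male germ line, was 4.11, 5.04 and 6.66 CPM in wild types and 16.4, 19.8 and 29.2 CPM in Zmym2-/- embryos (a log2 fold change of 1.97, SE 0.191). Exd1, a component of the piRNA pathway, was 1.07, 1.40 and 1.75 CPM against 2.35, 3.37 and 4.50 CPM (1.29, SE 0.219). Brdt, the bromodomain protein of the testis, was 0.432, 0.829 and 1.55 CPM against 2.44, 3.39 and 4.38 CPM (1.91, SE 0.323). Their groups were apart. Catsperg1, a subunit of the sperm calcium channel, rose by 1.97 on the log2 scale with overlapping groups.

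The rest of this group had no single tissue. Parp12, an ADP-ribosyltransferase induced by interferon in other settings, was 1.46, 2.84 and 3.77 CPM in Zmym2+/+ embryos against 7.74, 10.9 and 12.2 CPM (log2 fold change 1.99, SE 0.239). Map3k15, an X-linked stress kinase, was 2.36, 2.77 and 3.88 CPM against 6.59, 12.4 and 16.8 CPM (1.99, SE 0.26). The groups of both were apart. Lower-ranked members were the glucocorticoid receptor Nr3c1 (log2 fold change 1.28), the receptor chain Csf2ra (1.32), the drug transporter Abcb1a (1.75), the fatty acid enzyme Acacb (1.44), the calcium pump Atp2a3 (1.19) and the glycosyltransferase Galnt6 (1.73). Nr3c1, Atp2a3 and Galnt6 kept their call in 2 or fewer of the 12 leave-one-out fits.

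The 3 genes called lower had moderate changes. Magee2, an X-linked MAGE family gene, was 1.02, 1.52 and 2.31 CPM in wild types and 0.0755, 0.321 and 0.391 CPM in Zmym2-/- embryos, and its log2 fold change was -2.42 (SE 0.376, adjusted p = 0.00773 with edgeR). Stmn3, a microtubule regulator of neurons, was 3.22, 4.70 and 5.77 CPM against 1.71, 1.96 and 2.5 CPM (-1.17, SE 0.202). The groups of both were apart. Sdf2l1, a cofactor of the endoplasmic reticulum chaperone BiP, was 73.9, 113 and 146 CPM against 43.1, 60.2 and 74.1 CPM (-0.91, SE 0.184). Its groups overlapped by the lowest Zmym2+/+ embryo, and its call was kept in 2 of the 12 leave-one-out fits. Sdf2l1 belongs to the unfolded protein response, and 19 of 22 genes of that list had negative log2 fold changes. The list median was -0.28 over the 12 embryos, -0.23 in H embryos alone and -0.21 in J embryos alone. None of the others passed the test, among them Pdia6 (-0.50, SE 0.156), Creld2 (-0.44, SE 0.155) and Hspa5, the gene of BiP (-0.38, SE 0.147). At an unadjusted p under 0.05, 9 of the 22 were lower and 0 were higher, where 6.38% and 5.67% of all genes were.

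The upregulated genes were spread over the genome. The autosomes held 107 genes called higher and 2 lower of 21641 tested (0.504% called), and the X chromosome 8 higher and 1 lower of 927 (0.971%). The Y chromosome held 0 of 13. Summed Y transcripts were 0 to 2.97 CPM in the 6 female embryos and 107 to 182 CPM in the 6 males. That spread within each genotype made a Y call over the 12 embryos unlikely. In males alone, the Y-linked genes Uba1y and Zfy1 were called higher. Chromosomes 5, 4, 1 and 6 held 13, 12, 11 and 11 genes called higher, which were 0.82, 0.822, 0.716 and 0.846% of their genes tested. Chromosome 15 held 7 of 817 (0.857%), and chromosome 10 held 1 of 942 (0.106%), Sycp3. By annotation, 88 were protein-coding, 15 were pseudogenes (12.9%, against 9.48% of all genes tested) and 5 were antisense transcripts, Tsix of the Xist locus among them. In either direction, 0.535% of the 17025 protein-coding and 0.556% of the 900 antisense genes tested were called, against 0.524% of all genes. Neighbours were few: Gm37912 overlapped D1Pas1 by 187 bases on the opposite strand, Lacc1 overlapped Ccdc122 by 132 bases on the opposite strand, and Gm6054 lay 561 bases before Gm29793. These positions are from GENCODE on GRCm38.

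The genotype difference had the same direction in both name series and in both sexes. Within the H names alone (2 against 4 embryos), 109 of 109 upregulated genes that were tested had positive log2 fold changes, with a median of 2.35, where 43.7% of all genes were positive. Within the J names alone (4 against 2) 116 of 116 were positive, with a median of 3.21, where 49.2% of all genes were. Called genes numbered 1 higher in H and 46 in J, with 0.0044% and 0.202% of all genes called higher. All 116 were positive in males alone (median 2.73, 48.5% of all genes positive) and in females alone (median 3.00, 46.8%). The medians over all genes were between -0.01 and 0.01 in these 4 subsets. The embryos of the subsets are those of the 12-embryo fit that chose the genes, so the shared direction is a description.

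**Figure D4:**
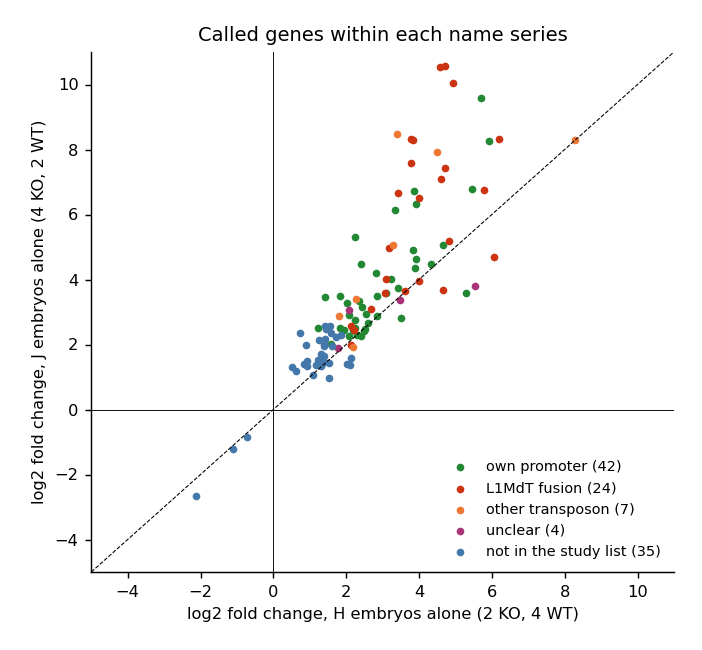
Log2 fold change of the called genes in the 4 Zmym2-/- and 2 Zmym2+/+ J embryos (vertical axis) against that in the 2 Zmym2-/- and 4 Zmym2+/+ H embryos (horizontal axis), for the 112 called genes tested in both, coloured by the study's class; the dashed line marks equal values. All 109 genes called higher lie above 0 on both axes, and the 3 called lower lie below 0 on both.

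With genotype in the model, 1370 genes (6.03%) were called between J and H embryos, 309 higher in J (1.36%) and 1061 lower in J (4.67%). None of the 119 genes called between genotypes was among them, but these came from a fit without the name series. There a large difference between J and H widens the spread within a genotype and makes a call less likely, so this absence decides nothing. Pseudogenes made up 50.5% of those higher in J, 3.96% of those lower in J and 9.48% of all genes. The genes with the smallest p were pseudogenes and predicted genes, such as Gm16378 (log2 difference of J over H -2.72, SE 0.205) and Rps6-ps4 (-2.17, SE 0.179), and Nbl1, a BMP antagonist (-3.08, SE 0.324). Of the 23 interferon response genes 13 were lower in J, and 5 of the 8 uterine natural killer genes. With the name series as a covariate, 98 of the 116 genes kept their call.

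The interaction of name series and genotype was called for 1 gene, the predicted gene Gm8822 (log2 -4.23, SE 0.497, adjusted p = 0.0422 with edgeR). It was 21.9 and 17.2 CPM in the Zmym2+/+ embryos of the J names and 0.602 to 1.87 CPM in the other 10 embryos. No interaction of sex and genotype passed the edgeR test (0 genes, 0%), while 5067 genes (22.3%) had an unadjusted p under 0.05 and DESeq2 called 2539. Among the 119 called genes, 19 (16%) had an unadjusted p under 0.05 for the interaction with sex, below the share of all genes. For the interaction with name series it was also 19 (16%), where 668 of all genes (2.94%) had such a p.

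Sex and name series were entangled, since all 3 male Zmym2-/- embryos were J embryos with low uterine markers and all 3 male Zmym2+/+ embryos, 2 of them H embryos, had high ones. In males alone 131 genes were called higher (0.576%) and 253 lower (1.11%), and the lower genes were led by the adult globins Hbb-bt and Hbb-bs, Gzmc, Gzme, Prf1, Spp1, Gzmb and the placental genes Prl7a1 and Psg29. Of these 253 genes, 190 were also called lower in J than in H embryos, 24 had a negative log2 fold change in females alone, and their median in females was 0.83. In females alone 11 genes were called higher (0.0484%) and 4 lower (0.0176%), the latter including the transcription factor Foxd1.

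When the level of the uterine natural killer markers was added to the model, 104 genes were called higher and 4 lower, and 96 of the 116 upregulated genes kept their call with a median of 2.73. Zmym2 was among the 4 lower genes in that fit, with a log2 fold change of -1.22 and an adjusted p of 0.0294 (edgeR), beside Magee2, Stmn3 and Gm38026. Of the genes called against the marker level itself, 998 in all, 0 were among the 116 called higher and 0 among the 3 called lower. Genes that follow the marker level vary within both genotypes and were less likely to be called in the fit by genotype alone, so this absence decides nothing. Within the 7 embryos of high markers alone 109 of 109 upregulated genes were positive (median 2.49, against -0.02 over all genes), and 2 genes were called. Within the 5 of low markers 116 of 116 were positive (median 3.28, against 0.04 over all genes), although those 5 included 1 Zmym2+/+ embryo. The share of all genes above 0 was not counted in these subsets. Both subsets are embryos of the fit that chose the genes, so the shared direction is a description.

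Genes that mark the tissues of the E8.5 embryo were not called between genotypes with edgeR. None of the listed genes of cardiac muscle, primitive erythroid cells, endothelium, somites, presomitic mesoderm, forebrain, hindbrain, neural crest, gut, node, visceral endoderm, trophoblast, extraembryonic mesoderm, surface ectoderm or primordial germ cells passed the edgeR test, out of 5 to 12 tested in each. Of these 134 genes, 6 were higher and 3 lower at an unadjusted p under 0.05, and DESeq2 called 1, the germ cell gene Dppa3. All 10 primitive erythroid and all 8 trophoblast genes had negative log2 fold changes (medians -0.77 and -1.04). All 11 visceral endoderm genes had positive ones (median 0.48), and the other lists named here held both signs. The per-embryo medians of the erythroid, trophoblast and visceral endoderm lists overlapped between genotypes. The defining genes were present: the heart gene Myl7 was 84.7 to 269 CPM in wild types and 10.9 to 216 CPM in Zmym2-/- embryos, and the forebrain gene Otx2 was 16.1 to 35.4 CPM against 20.7 to 38.6 CPM. The embryonic globin Hbb-bh1 ranged from 11.8 to 4873 CPM among Zmym2+/+ embryos and from 22.3 to 1996 CPM among Zmym2-/- embryos. This range within a genotype was wider than the difference between the means of 1529 and 647 CPM. Some list medians of the genotype difference had opposite signs in the sexes. The hindbrain and neural tube list was 1.06 in males alone and -2.11 in females alone. The somite and cardiac lists were also positive in males and negative in females, whereas the trophoblast list was -4.85 and 0.94. Sex and name series were entangled, so these medians do not separate the part of each.

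Zmym2-/- embryo 6 stood apart from the rest. Its cardiac list had a median of -3.80, against -1.03 to 1.16 in the other Zmym2-/- embryos, its posterior Hox list -2.46, against -0.59 to 0.21, and its endothelial list -1.66, against -0.01 to 0.46. Its node and notochord list, by contrast, had 1.66 and its presomitic list 1.39. The 68 genes of motile cilia had medians of 3.14 in embryo 6, 2.12 in embryo 5 and 0.06 to 0.38 in the other 4 Zmym2-/- embryos, and the list median between genotypes was 1.66 with and 0.21 without embryos 5 and 6. With edgeR, Iqub was the 1 cilia gene of 68 called (1.47%), although 40 were higher at an unadjusted p under 0.05, and DESeq2 called 16 (23.5%), all of them higher. Iqub was 0.473, 0.585 and 4.14 CPM in Zmym2-/- against 0.0206, 0.0641 and 0.155 CPM in Zmym2+/+ embryos. Without embryos 5 and 6, all 116 upregulated genes stayed positive, 72 kept their call and their median was 2.60.

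**Figure D5:**
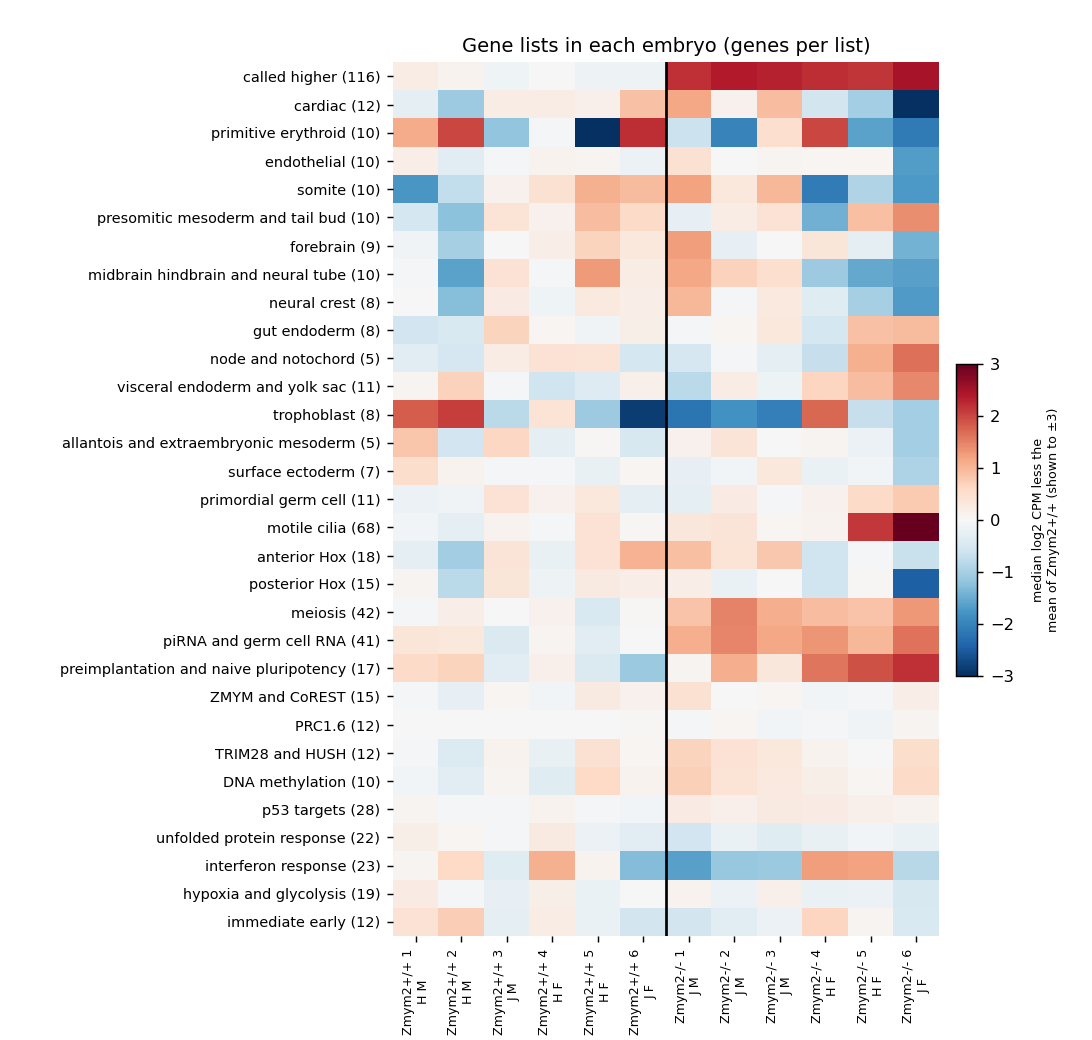
Each cell is the middle value of a gene list in 1 embryo, as log2 CPM relative to the Zmym2+/+ average (colour, shown to ±3), with the number of genes per list in brackets. The genes called higher and the meiosis and piRNA lists are raised in all 6 Zmym2-/- embryos, the cilia list in embryos 5 and 6 (2.12 and 3.14), and the tissue lists vary within both genotypes, with the cardiac list at -3.80 in Zmym2-/- embryo 6.

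Markers of primordial germ cells and of the preimplantation embryo were mostly not called. Of 11 primordial germ cell genes none passed the edgeR test, 2 were higher at an unadjusted p under 0.05 and DESeq2 called 1, Dppa3 (adjusted p = 2.94e-05 with DESeq2). With edgeR Dppa3, a maternal and germ cell factor, came nearest at 0.0485 to 1.13 CPM in wild types and 1.75 to 4.31 CPM in Zmym2-/- embryos (a log2 fold change of 2.44, SE 0.508, adjusted p = 0.0536 with edgeR). Its groups were apart. Pou5f1 was 4.28 to 61.3 CPM against 2.74 to 364 CPM, and Nanog 0.294 to 2.96 CPM against 0.255 to 17.7 CPM, with overlapping groups for both. Of 17 preimplantation genes tested, Gdf3, a TGF-beta family ligand, rose from 0.0620, 0.120 and 0.350 CPM to 0.487, 1.10 and 3.03 CPM (log2 fold change 3.24, SE 0.572). It was the 1 gene of this list called with edgeR, and DESeq2 called 4. The list median was 0.92 and was 0.28 without embryos 5 and 6.

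The silencing machinery itself was not called. None of 15 ZMYM and CoREST genes, 12 PRC1.6 genes, 12 TRIM28 and HUSH genes or 10 DNA methylation genes passed the edgeR test, with medians of 0.06, -0.05, 0.31 and 0.38. DESeq2 called 0 of these 49 genes, and 7 had a higher and 1 a lower level with an unadjusted p under 0.05. Among all genes tested, 5.67% rose and 6.38% fell by that measure. Log2 fold changes were positive for 11 of the 12 TRIM28 and HUSH genes and 9 of the 10 DNA methylation genes. The same held for 10 of the 15 ZMYM and CoREST genes and 5 of the 12 PRC1.6 genes. The per-embryo medians of each list overlapped between genotypes. Kdm1a, the gene of LSD1, was 140 to 229 CPM in wild types and 197 to 280 CPM in Zmym2-/- embryos (a log2 fold change of 0.37, SE 0.131). Dnmt3b, a methyltransferase of this stage, was 83.3 to 255 CPM against 120 to 471 CPM (0.81, SE 0.333). Atf7ip, a partner of SETDB1, was 41.2 to 110 CPM against 87.2 to 171 CPM (0.88, SE 0.245, adjusted p = 0.235 with edgeR). All 3 overlapped between genotypes.

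Of 28 p53 target genes 1 was called with edgeR and 3 with DESeq2, and the former was Trp53inp1, an inducer of cell death and autophagy. It was 11.7, 13.2 and 14.9 CPM in wild types and 23.5, 28.0 and 29.3 CPM in Zmym2-/- embryos, with groups apart and a log2 fold change of 1.03 (SE 0.121, adjusted p = 0.000733 with edgeR). Cdkn1a, the cell cycle inhibitor p21, was 10.6 to 18 CPM against 16.5 to 28.8 CPM and was called with DESeq2 but not with edgeR (0.65, SE 0.181, adjusted p = 0.226 with edgeR). The list had a median of 0.22, with 20 of 28 genes positive. No gene of the interferon response (23), hypoxia and glycolysis (19) or immediate early (12) lists was called with edgeR or DESeq2, with medians of 0.14, -0.18 and -0.13. At an unadjusted p under 0.05, 0 of these 54 genes were higher and 2 were lower. The interferon list had medians of 1.25 and 1.22 in Zmym2-/- embryos 4 and 5, which had high uterine markers, and -1.63 to -0.82 in the other 4.

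At the threshold, the last genes inside were Sdf2l1, Usp26 and Zp3r (adjusted p 0.0472, 0.0496 and 0.0496 with edgeR). Usp26, an X-linked deubiquitinase of the testis, had 1 Zmym2+/+ embryo at 4.27 CPM and the others at 0.444 CPM or less, against 25.7 to 70.8 CPM in Zmym2-/- embryos. Its call was kept in 1 of the 12 leave-one-out fits, although its groups were apart. The nearest genes outside were Tex14, a protein of the bridges between germ cells, at 0.0618 to 0.314 CPM against 0.446 to 1.05 CPM (log2 fold change 1.89, SE 0.389, adjusted p = 0.0502), and Cldn34b4 and Ctcflos, both with no reads in any Zmym2+/+ embryo.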

How the data were processed

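Total RNA of single embryos was made into NEB stranded mRNA libraries and sequenced as paired ends. The authors used Trimmomatic 0.34, STAR 2.7.8a (build mm10) and Picard 2.9.0, and deposited HTSeq read counts per gene, which were tested here. The deposited table also holds the authors' normalized counts (used here as a score, not tested) and StringTie 1.3.5 RPKM values, used for levels per length. Counts of the 12 embryos were fitted with edgeR 4.0.16 in R 4.3.3 (TMM scaling, quasi-likelihood test, two-sided, Benjamini-Hochberg adjustment, called under 0.05). A limit of at least 10 counts was set, and it removed none of the 22729 genes. DESeq2 1.42.0 was an alternative. Other alternatives were scaling, filters, covariates, blocks and subsets. On simulated counts for this comparison (22525 genes) 34 of 67 changes of 2-fold, 58 of 67 of 4-fold and 64 of 66 of 8-fold were called, and so were 10 unchanged genes. The changes were put only into genes with a mean above 1 CPM over the 12 embryos. Since 84 of the 116 genes called higher had a Zmym2+/+ mean under 1 CPM, these rates do not describe such low genes. Nothing in the labels says that embryos came from separate litters, so p-values measure the spread between these embryos. Named genes are Zmym2, the called genes, up to 4 genes of smallest p per list and those nearest the threshold. The gene lists and questions were chosen with earlier results of these data known, and the uterine lists after these values were seen. Embryo names H and J served as a check. Same replicate numbers did not pair embryos (correlations of deviations -0.421 to 0.378). Same name numbers had 0.109 to 0.525 over 4 pairs, inside the range of other name numbers (-0.682 to 0.712). Their median of 0.377 was close to that of pairs of the same name series (0.375), so these values do not separate number from series.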

Additional observations from a re-analysis of the deposited data

Results flagged for a closer look

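In 112 groups of 6 embryos, 10 had 1 embryo far from other embryos that were not all at 0, by the Dixon ratio. The ratio flags about 1 in 20 groups of independent normal values. These groups were CPM values of named genes, some picked for a wide spread, and list medians of the same embryos, so the number flagged cannot be set against that rate. In another 2 groups the other 5 embryos had 0 reads, so that any read gives the highest ratio. Among called genes, Zmym2+/+ embryo 1 was the only wild-type embryo with any A230004M16Rik reads (1 read, 0.0262 CPM) and had 4.27 CPM of Usp26, where the other 5 had 0 to 0.444 CPM. Zmym2+/+ embryo 3 was the only wild-type embryo with reads of 1700007B14Rik (2 reads, 0.0412 CPM) and had the highest Gdf3 (0.350 CPM, the others at most 0.139 CPM). Zmym2+/+ embryo 5 had 0.945 CPM of Doc2b, where the others had 0.138 to 0.418 CPM. Among Zmym2-/- embryos, embryo 2 had 9.12 CPM of Stra8 (others 0.788 to 2.75 CPM), embryo 4 had 56.6 CPM of Fsd1l (others 37.8 to 42.5 CPM) and embryo 6 had 0.0755 CPM of Magee2 (others 0.297 to 0.391 CPM).

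Zmym2-/- embryo 6 was also far from the others in the median of the endothelial list (-1.66) and of the posterior Hox list (-2.46). Zmym2+/+ embryo 2 was far below the others in the neural crest list (-1.27), and Zmym2+/+ embryo 5 in the meiosis list (-0.47). The genotype difference of Gm8822 differed between the name series (interaction log2 -4.23, SE 0.497, adjusted p = 0.0422 with edgeR). What sets these embryos apart was not tested.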

How the results depend on the processing

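Over the 12 embryos edgeR called 116 genes higher and 3 lower (84 and 1 by at least 4-fold), and the counts that follow are of all genes called under each alternative, whether or not among these 119. DESeq2 called 324 and 32 (170 and 3), J names alone 46 and 1 (44 by at least 4-fold higher), H names alone 1 and 0 (1 and 0), females alone 11 higher and 4 by at least 4-fold lower (11 higher by at least 4-fold), and males alone 253 lower (215 by at least 4-fold). Of the genes called in J names alone, 30 of the 46 higher and 0 of the 1 lower were among the 119, as were 2 of the 253 lower in males and 0 of the 4 lower in females. The fit with the replicate number as a block called 49 and 0 (42 and 0), although the number did not pair the embryos. The name number as a block over 7 embryos called 1 and 0 (1 and 0). Leaving out 1 embryo at a time gave 78 to 113 genes higher, 1 to 39 lower, 63 to 83 by at least 4-fold higher and 1 to 1 by at least 4-fold lower; the 39 came without Zmym2+/+ embryo 5, and 78 without Zmym2-/- embryo 2. Without Zmym2-/- embryos 5 and 6 the counts were 76 and 1 (62 and 1). Added after seeing the data, the uterine natural killer level as a covariate gave 2 genes at least 4-fold lower, embryos with high markers alone 2 and 0 (2 and 0), and embryos with low markers alone 0 and 0 (0 and 0). DESeq2 called 2539 genes for the interaction with sex, 14 for that with name series and 2588 between J and H. RLE scaling and other filters kept all counts within 1.5 times, and no direction was reversed. The fit without a filter tested the same 22729 genes, since the lowest total was 13 counts, so it could not differ from the main fit. What lowered the counts in the smaller subsets beside fewer embryos was not tested. Low counts limit the genes near 0 in Zmym2+/+ embryos.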

Other observations

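The RPKM table listed 6826 genes with a value above 0 that the count table did not hold. Of these, 1 had every Zmym2-/- embryo above every Zmym2+/+ embryo (0.0146%) and 0 had every Zmym2-/- embryo below, and none with such a separation had a Zmym2-/- mean of 0.1 RPKM or more.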
